A study of Mus musculus with 12 samples.

Results

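NF-kappaB is the transcription factor family that carries much of the activating signal from the T cell receptor and CD28, and 10 of its subunit and inhibitor genes are described here across 12 arrays of mouse CD4+ T cells. The genes are Nfkb1, Nfkb2, Rel, Relb, Nfkbia, Nfkbid, Nfkbie, Nfkbiz, Bcl3 and Tnfaip3, and a probe set was taken for a gene where the platform annotation gave that gene as its single symbol. This found 1 probe set each for 9 of the 10 genes, among 19752 genes measured. Nfkb1 had no such probe set and was not analysed here, so the 9 measured genes are the members from here on.

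The samples were splenic helper T cells of male C57BL/6 mice, 6 weeks old, obtained by removing other cells, with no transgene or deletion named. All had been activated for 48 h on beads against CD3 and CD28. After that, 5 samples were kept with the cytokine IL-12 (100 U/ml) for 2 h, 4 with IL-12 for 8 h and 2 without it for 2 h. The last sample is labelled baseline and carries no culture time. Values are log2 intensities on Affymetrix Mouse Gene 1.0 ST arrays, whose probes lie along whole transcripts.

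In resting T cells NF-kappaB dimers are held in the cytoplasm by IkappaB proteins. Receptor signals activate the IkappaB kinase complex, the inhibitors are degraded, and dimers holding c-Rel (Rel), RelA or RelB (Relb) enter the nucleus. Nfkb2 encodes p100, the precursor of p52 and itself an inhibitor of RelB. Nfkbia encodes IkappaB-alpha and Nfkbie IkappaB-epsilon, which are among the classical cytoplasmic inhibitors. Nfkbid (IkappaB-NS), Nfkbiz (IkappaB-zeta) and Bcl3 are nuclear family members that bind p50 or p52 on DNA and can raise or lower transcription. Tnfaip3 encodes A20, a ubiquitin-editing enzyme that shuts off signalling upstream of the kinase. Many of these genes are themselves NF-kappaB targets, which makes the pathway a feedback circuit, and IL-12 acts mainly through another factor, STAT4.

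Promoter sequence was looked at because several members are known to carry NF-kappaB sites near their start. RefSeq promoter windows (GRCm38.p6), each 250 bases before to 50 bases after a transcript start, were matched by symbol for 7 of the 10 genes, 12 windows in all. No window was used for Nfkb1, Relb or Nfkbiz. The kappaB consensus, searched on both strands, was present in 9 of the 12 windows and in at least 1 window of all 7 genes. A pair of the Nfkb2 windows overlaps, and 1 site lies in both, so that site is counted in each. Among all 32851 windows, 8.46% held a match, and of 27025 genes 9.55% did. The AP-1 motif TGANTCA, also searched on both strands, was in a window of 3 members (Nfkb2, Nfkbie and Tnfaip3), against 8.97% of all genes, and none of these AP-1 matches shared a base with a kappaB match. A match is a run of letters and not a measured site.

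The 250 bases before the start are shown for the 3 members that fell most from 2 h to 8 h of IL-12 (Nfkbid, Rel and Tnfaip3), for the classical feedback inhibitor (Nfkbia), and for the member whose change differed between array runs (Nfkb2). Capitals mark the kappaB matches, and each sequence reads in the direction of its gene. The Nfkbid stretch is chr7:30422156-30422405 on the plus strand, Rel chr11:23770970-23771219 on the minus strand, Tnfaip3 chr10:19015411-19015660 on the minus strand, Nfkbia chr12:55492648-55492897 on the minus strand and Nfkb2 chr19:46304487-46304736 on the plus strand.
Nfkbid: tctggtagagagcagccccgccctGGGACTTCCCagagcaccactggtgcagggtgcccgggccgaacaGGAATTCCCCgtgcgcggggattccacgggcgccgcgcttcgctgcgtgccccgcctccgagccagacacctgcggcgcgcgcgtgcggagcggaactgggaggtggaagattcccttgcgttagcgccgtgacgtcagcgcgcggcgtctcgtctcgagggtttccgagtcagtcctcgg
Rel: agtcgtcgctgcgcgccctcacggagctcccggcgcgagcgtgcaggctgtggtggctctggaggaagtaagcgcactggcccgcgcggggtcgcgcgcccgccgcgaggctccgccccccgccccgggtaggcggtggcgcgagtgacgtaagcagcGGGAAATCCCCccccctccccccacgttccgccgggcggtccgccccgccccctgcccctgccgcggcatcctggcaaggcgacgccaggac
Tnfaip3: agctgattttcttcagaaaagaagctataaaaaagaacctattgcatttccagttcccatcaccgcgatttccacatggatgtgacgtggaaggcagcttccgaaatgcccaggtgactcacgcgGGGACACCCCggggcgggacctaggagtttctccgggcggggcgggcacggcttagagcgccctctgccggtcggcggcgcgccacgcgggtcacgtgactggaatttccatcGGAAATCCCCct
Nfkbia: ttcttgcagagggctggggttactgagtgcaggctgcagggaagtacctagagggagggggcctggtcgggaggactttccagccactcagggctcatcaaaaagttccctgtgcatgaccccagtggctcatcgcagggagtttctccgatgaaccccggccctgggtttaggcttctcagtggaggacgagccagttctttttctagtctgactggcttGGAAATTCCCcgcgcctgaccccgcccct
Nfkb2: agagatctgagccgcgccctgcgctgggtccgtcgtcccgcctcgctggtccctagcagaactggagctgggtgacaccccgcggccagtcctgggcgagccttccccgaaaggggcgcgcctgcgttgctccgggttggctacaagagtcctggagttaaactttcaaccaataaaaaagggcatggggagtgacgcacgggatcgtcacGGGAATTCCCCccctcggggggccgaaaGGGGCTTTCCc
In Nfkbid the matches begin 226 and 181 bases before the start shown, and in Rel a pair of overlapping matches begins at 92 and 91 bases. Tnfaip3 has matches at 125 and 12 bases before the start shown, Nfkbia 1 match at 29 bases, and Nfkb2 an overlapping pair at 39 and 38 bases and another at 11 bases. Nfkbid, Tnfaip3 and Nfkb2 have several windows, and the one shown holds the most kappaB matches of its gene. The other windows of Nfkbid and Tnfaip3 held 0, and those of Nfkb2 held 2 and 1.

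**Figure D1:**
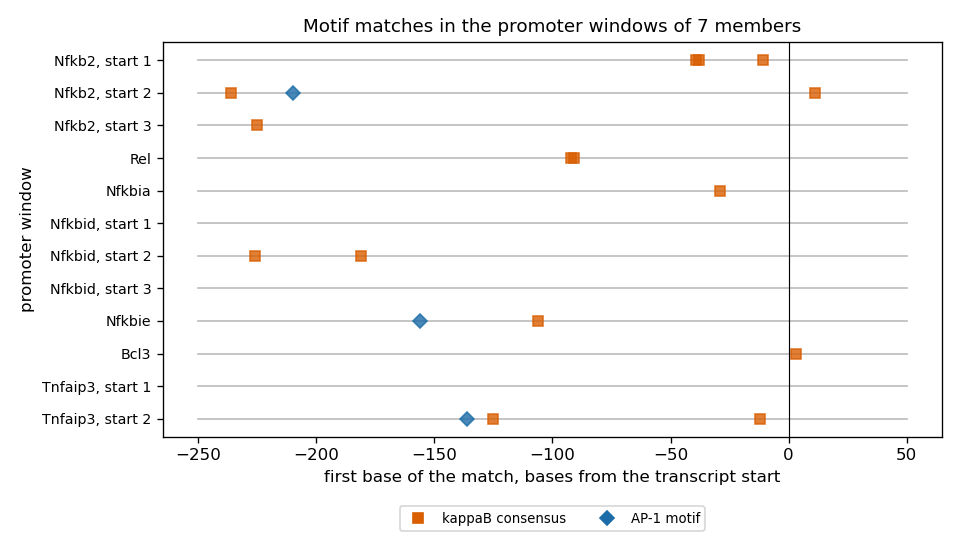
Position of each kappaB (square) and AP-1 (diamond) match in the 12 promoter windows of 7 members; the horizontal axis gives the first base of the match relative to the transcript start, in bases, and each grey line is 1 window, of which a pair for Nfkb2 overlaps and shares 1 kappaB site (11 after one start, -225 from the next). The matches nearest upstream of a start are at -11 in Nfkb2 and -12 in Tnfaip3, and 3 windows, of Nfkbid and Tnfaip3, hold none.

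Sample titles carry numbers, and these fall into 2 runs, 2 to 4 and 5 to 8, whose meaning the labels do not give. The IL-12 groups lie in both runs (3 and 2 arrays at 2 h, 2 and 2 at 8 h), while the untreated and baseline arrays all carry numbers from 5 to 8, so a term for run entered every model and within-run values are given. Whether replicates are separate animals or cultures is not in the labels, and the p-values therefore cover only the spread between the samples, which could be technical. Array medians lay between 160.6 and 167.3 on the linear scale, and the number of arrays limits the precision. All 8 measured T cell markers were brighter than the array median of 7.37 log2 units, with a mean log2 level of 11.72 to 11.94 on every array. Above that median were also 4 of 14 macrophage and monocyte, 3 of 11 B cell, 1 of 9 dendritic cell and 0 of 9 neutrophil markers. The same held for 2 of 6 NK cell, 1 of 2 CD8 T cell and 3 of 5 erythroid and platelet markers. Among markers named below, Klrb1c, Ncr1, Itgax, Ccr9, Ebf1, Klf1, Cd22 and Pax5 averaged under it. Mean log2 levels of the 14 macrophage and monocyte markers were 6.98 to 7.23 on the untreated and IL-12 arrays of run 5 to 8, 6.60 to 6.75 in run 2 to 4 and 6.82 on the baseline array. Fewer cells of a type and less RNA per cell cannot be told apart in such bulk samples.

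All 9 members stood higher in cells held for 2 h without IL-12 than in the baseline sample, both after 48 h of activation. Nfkbid rose 2.95-fold, Rel 2.36-fold, Nfkbia 2.14-fold, Nfkb2 2.07-fold and Nfkbie 2.03-fold. The smallest rise was that of Bcl3, at 1.33-fold. The median log2 change of the members was 1.02, against -0.035 over all genes. All 9 were called higher by limma (Benjamini-Hochberg adjusted p from 1.3e-05 to 0.0352), where 6.28% of all genes were called higher and 3.96% lower.

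Nfkbid was at 9.30 log2 units on the baseline array and at 10.89 and 10.83 on the untreated arrays, a log2 change of 1.56 ± 0.14 (SE; limma adjusted p = 1.3e-05). Rel went from 10.79 to 11.96 and 12.10, a change of 1.24 ± 0.14 (limma adjusted p = 0.000111). Nfkbia went from 11.03 to 12.03 and 12.23, a change of 1.10 ± 0.13 (limma adjusted p = 0.000132). In each of these the baseline array lay below both untreated arrays by more than those arrays differed. Nfkb2 was at 9.79 on the baseline array and at 10.90 and 10.78 without IL-12 (1.05 ± 0.20, limma adjusted p = 0.00398). Log2 rises of the other 4 were 1.02 ± 0.17 for Nfkbie, 0.91 ± 0.13 for Nfkbiz, 0.86 ± 0.16 for Relb and 0.80 ± 0.13 for Tnfaip3. Bcl3 was at 10.85 on the baseline array and at 11.35 and 11.17 without IL-12, a change of 0.42 ± 0.12 (limma adjusted p = 0.0352).

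Baseline is 1 array, so the error comes from the other groups, and its place in a run rests on its title number alone. Calls were 5 of 9 with the baseline array placed in run 2 to 4 or with no run term. They were 1 of 9 (Nfkbid, 1.69, limma adjusted p = 0.0317) with the mean of the macrophage markers as covariate, where the other 8 changes were 0.40 to 1.11. Over all genes 204, 115 and 50 were called in these settings, against 2022 in the main fit. Of the 14 macrophage and monocyte markers, 3 were higher in untreated than in baseline cells (Lyz2 by a log2 of 2.13, Cd68 by 0.74 and Cybb by 0.72). Also higher were 2 of 9 dendritic cell markers (Ccr9 by 0.96 and Itgax by 0.43), 2 of 6 NK cell markers (Klrb1c by 0.56 and Ncr1 by 0.46) and 1 of 2 CD8 T cell markers (Cd8b1 by 0.54). Of 11 B cell markers 3 were lower (Ms4a1 by a log2 of -1.44, Cd22 by -0.81 and Pax5 by -0.38), and of 5 erythroid and platelet markers 4 were lower (Ppbp by -2.88, Pf4 by -1.96, Itga2b by -0.68 and Klf1 by -0.52). Mean log2 levels were 7.24 at baseline and 6.81 to 6.89 without IL-12 for B cell markers, and 8.23 and 6.89 to 7.17 for erythroid and platelet markers. With the macrophage covariate the SEs were larger than in the main fit, so a call could be lost with little change in the rise. Changes there were 1.11 ± 0.29 for Rel, 1.05 ± 0.27 for Nfkbia, 1.00 ± 0.26 for Nfkbiz and 0.64 ± 0.39 for Nfkb2. The part of other cells in the rise of the members was not tested beyond that covariate.

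**Figure D2:**
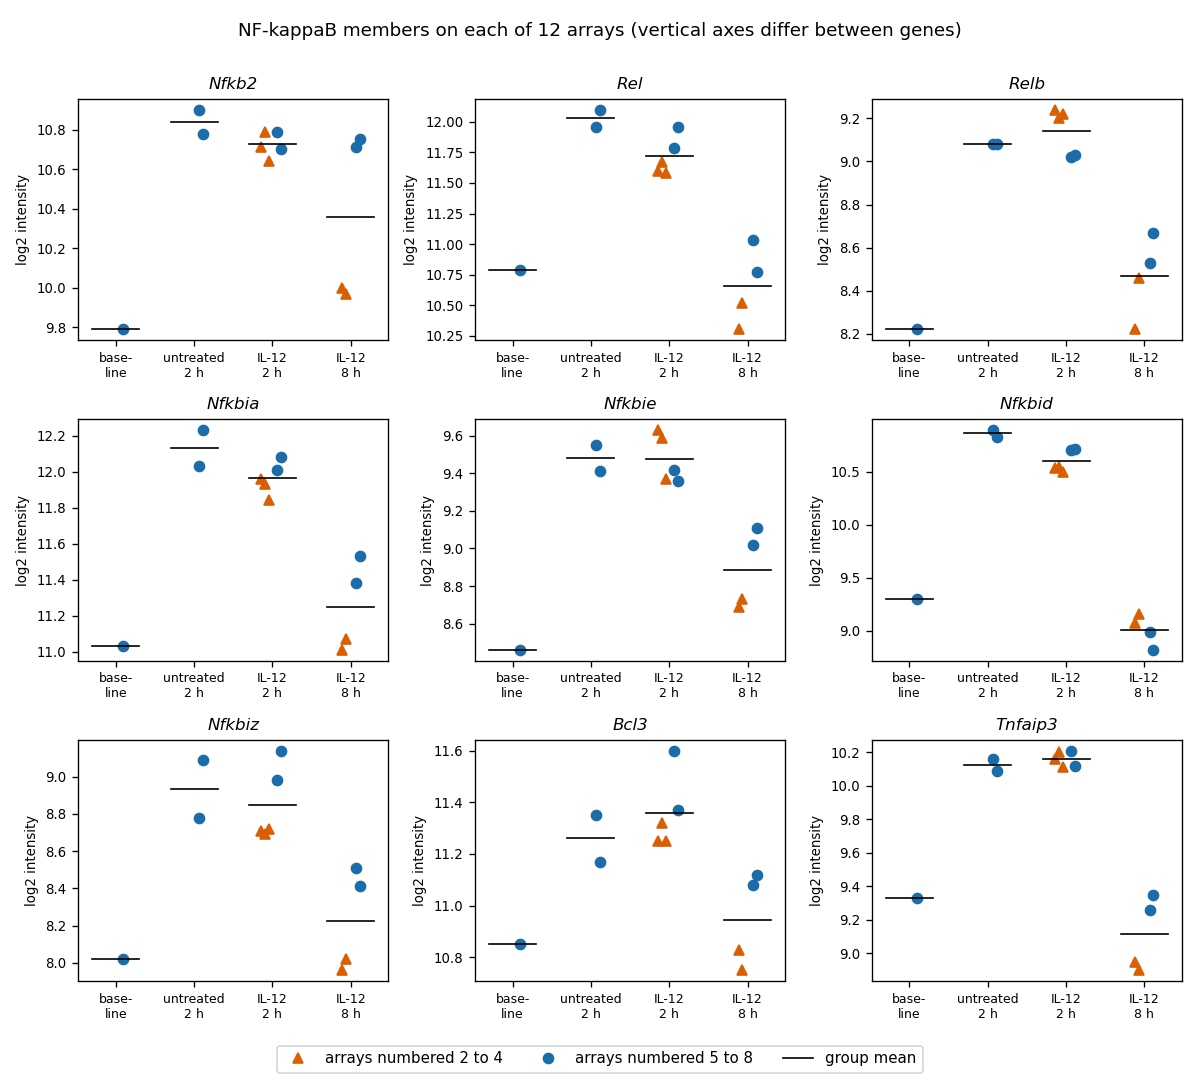
Log2 intensity (vertical axes, which differ between genes) of the 9 members on each of 12 arrays, by group; triangles are arrays numbered 2 to 4, circles those numbered 5 to 8, and lines are group means. Untreated and IL-12 2 h arrays lie above the baseline array for all 9 genes, and all IL-12 8 h arrays lie below all IL-12 2 h arrays for 8 of them, Nfkb2 being the exception.

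Adding IL-12 for 2 h left no member called against cells held for 2 h without it. The 9 log2 changes ran from -0.26 to 0.25 with a median of 0.07, and limma adjusted p-values ran from 0.863 to 0.999. Within run 5 to 8 the changes were -0.16 for Rel, -0.15 for Nfkbid, -0.09 for Nfkb2 and Nfkbie, -0.08 for Nfkbia and -0.06 for Relb. Those of Bcl3, Nfkbiz and Tnfaip3 were 0.22, 0.12 and 0.04. For Nfkb2, Relb and Nfkbie the run-adjusted changes had the opposite sign, at 0.10, 0.07 and 0.05. Over all genes 0.0709% were called, in either direction. At an unadjusted p under 0.05 there were 2 members, Nfkbid (-0.26, interval -0.49 to -0.03) and Bcl3 (0.25, interval 0.06 to 0.44), with limma adjusted p of 0.969 and 0.863.

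Rel was at 11.96 and 12.10 without IL-12 and at 11.60, 11.67, 11.58, 11.79 and 11.96 after 2 h with it. Its lower values with IL-12 were the 3 arrays of run 2 to 4, which the untreated group does not hold, and its run-adjusted change was -0.09 (95% confidence interval -0.33 to 0.14). Nfkbia was at 12.03 and 12.23 without IL-12 and at 11.96, 11.93, 11.84, 12.01 and 12.08 with it, a change of 0.00 (interval -0.22 to 0.21). The groups overlapped within run 5 to 8 for Nfkbia and met at 11.96 for Rel. Those of Nfkbid did not overlap, at 10.89 and 10.83 without IL-12 and 10.50 to 10.71 with it (10.70 and 10.71 in run 5 to 8). Intervals of the other 5 members reached no lower than -0.23 (Nfkbie, Nfkb2) and no higher than 0.42 (Nfkb2).

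From 2 h to 8 h of IL-12 all 9 members fell. Nfkbid fell 3.00-fold, Rel 2.15-fold, Tnfaip3 2.08-fold and Nfkbia 1.68-fold, with Nfkb2 and Bcl3 moving least at 1.32-fold and 1.35-fold. The members' median log2 change was -0.67, against -0.009 for all genes. All 9 were called lower by limma (adjusted p from 3.38e-08 to 0.0264), where 6.36% of all genes were called lower and 6.27% higher. For 8 of the 9 every 8 h array lay below every 2 h array, a pattern that 4.23% of all genes had. No untreated sample was held for 8 h, so time with IL-12 and time in culture cannot be told apart. Over the same interval 2 of 8 T cell markers rose (Cd3d by a log2 of 0.30 and Cd28 by 0.24), 2 of 9 dendritic cell markers fell (Ccr9 by 0.58 and Batf3 by 0.38), and 0 of 14 macrophage markers was called by limma, with 1 at an unadjusted p under 0.05. Of 6 NK cell markers Klrb1c fell by 0.67 while Gzma rose by 0.42 and Ncr1 by 0.38, the B cell marker Ebf1 fell by 0.29 and the erythroid marker Klf1 rose by 0.26. The part of other cells in the fall of the members was not tested beyond the macrophage covariate, with which 8 of 9 members and 1392 genes in all were called.

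Among the subunits, Rel, the c-Rel gene of activated lymphocytes, moved most. It was at 11.60, 11.67, 11.58, 11.79 and 11.96 at 2 h and at 10.30, 10.52, 11.03 and 10.77 at 8 h, a log2 change of -1.10 ± 0.08 (limma adjusted p = 9.59e-07). Groups did not overlap, and the change was -1.21 within run 2 to 4 and -0.97 within run 5 to 8. Relb was at 9.24, 9.20, 9.22, 9.02 and 9.03 at 2 h and at 8.22, 8.46, 8.53 and 8.67 at 8 h (-0.67 ± 0.09, limma adjusted p = 0.000173). Its fall was -0.88 in run 2 to 4 and -0.42 in run 5 to 8, and within run 5 to 8 alone it was not called (limma adjusted p = 0.0636). The fifth subunit gene, Rela, is no member, and its log2 change was -0.27 ± 0.07 (limma adjusted p = 0.0219).

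Nfkb2 was the member whose groups overlapped. It was at 10.71, 10.79, 10.64, 10.79 and 10.70 at 2 h, while at 8 h it averaged 9.99 on the arrays numbered 2 and 3 and was at 10.71 and 10.75 on those numbered 5 and 6. Both arrays of run 2 to 4 were thus low at 8 h, and those of run 5 to 8 stood level with the 2 h arrays. Its log2 change was -0.40 ± 0.11 over all arrays (limma adjusted p = 0.0264), -0.73 within run 2 to 4 and -0.02 within run 5 to 8 (limma adjusted p = 0.971). Its call was also lost with the title number as a fixed block (-0.39, limma adjusted p = 0.146), without the run term (-0.37, 0.237), with the macrophage covariate (-0.34, 0.132), and without any 1 of the 5 IL-12 arrays of run 2 to 4 (limma adjusted p from 0.0602 to 0.131).

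Both classical inhibitors among the members fell. Nfkbia, the fast feedback inhibitor, was at 11.96, 11.93, 11.84, 12.01 and 12.08 at 2 h and at 11.01, 11.07, 11.38 and 11.53 at 8 h, a change of -0.75 ± 0.07 (limma adjusted p = 1.52e-05). The groups did not overlap, and within runs the change was -0.87 and -0.60. Nfkbie was at 9.63, 9.59, 9.37, 9.42 and 9.36 at 2 h and at 8.69, 8.73, 9.02 and 9.11 at 8 h (-0.60 ± 0.09, limma adjusted p = 0.000765). Its groups were separate too, but the fall was -0.82 in run 2 to 4 and -0.33 in run 5 to 8, where it was not called alone (limma adjusted p = 0.158). Nfkbib encodes IkappaB-beta, also a classical inhibitor, and is no member. It changed by -0.17 ± 0.07, its groups overlapped and it was not called (limma adjusted p = 0.167).

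The nuclear IkappaB genes differed in size of change. Nfkbid was at 10.53, 10.54, 10.50, 10.70 and 10.71 at 2 h and at 9.07, 9.16, 8.99 and 8.82 at 8 h, a change of -1.59 ± 0.08 (95% interval -1.75 to -1.42, limma adjusted p = 3.38e-08). More than 1 log2 unit separated the lowest 2 h array from the highest 8 h array, and the fall was -1.41 in run 2 to 4 and -1.80 in run 5 to 8. Nfkbiz was at 8.71, 8.69, 8.72, 8.98 and 9.14 at 2 h and at 7.96, 8.02, 8.51 and 8.41 at 8 h (-0.66 ± 0.07, limma adjusted p = 3.42e-05). Bcl3, whose product acts with p50 and p52, was at 11.25, 11.32, 11.25, 11.60 and 11.37 at 2 h and at 10.83, 10.75, 11.08 and 11.12 at 8 h (-0.44 ± 0.06, limma adjusted p = 0.00051). Neither gene's groups overlapped, within-run falls were -0.71 and -0.60 for Nfkbiz and -0.48 and -0.38 for Bcl3, and Bcl3 was not called in run 5 to 8 alone (limma adjusted p = 0.144).

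Tnfaip3, the A20 gene, was at 10.16, 10.20, 10.11, 10.21 and 10.12 at 2 h and at 8.95, 8.90, 9.26 and 9.35 at 8 h. The 2 h arrays lay close together and all 8 h arrays were well below them. The log2 change was -1.06 ± 0.07 (limma adjusted p = 7.21e-07), with -1.22 in run 2 to 4 and -0.86 in run 5 to 8.

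**Figure D3:**
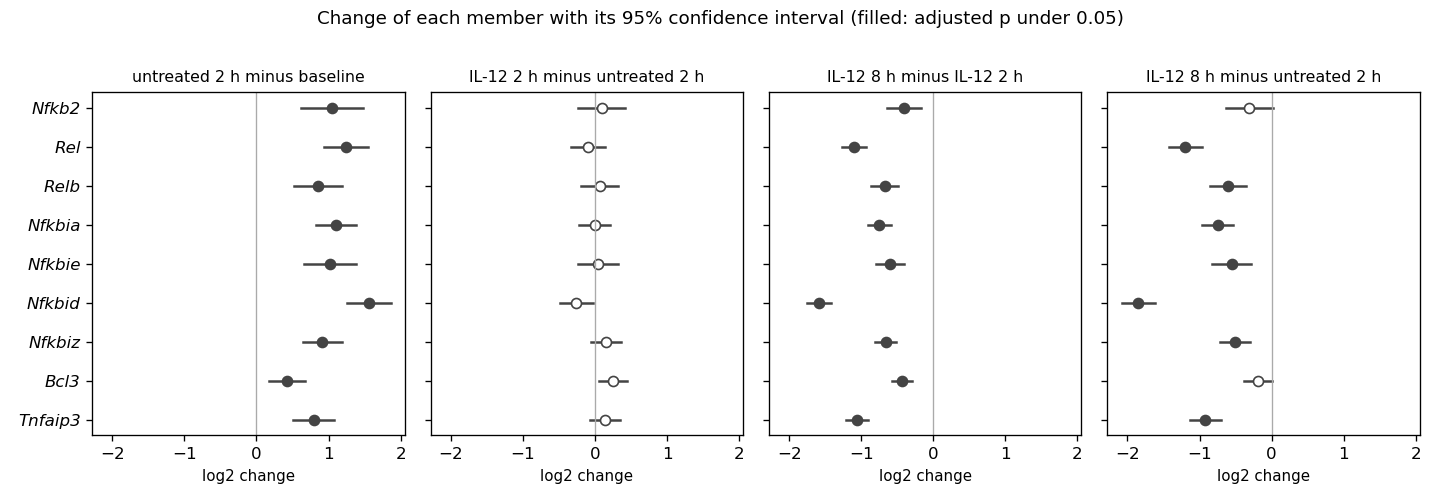
Log2 change (horizontal axis) of each member in 4 comparisons, with its 95% confidence interval; filled points have a limma adjusted p under 0.05. All 9 points lie above 0 for untreated 2 h minus baseline and below 0 for IL-12 8 h minus IL-12 2 h, and none is filled for IL-12 2 h minus untreated 2 h.

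Set against untreated cells held for 2 h, cells with IL-12 for 8 h were lower in 7 of the 9 members. Nfkbid was 3.60-fold lower (log2 -1.85 ± 0.11, limma adjusted p = 9.1e-07), Rel 2.29-fold (-1.20 ± 0.11, 3.04e-05), Tnfaip3 1.89-fold (-0.92 ± 0.10, 0.00013) and Nfkbia 1.68-fold (-0.75 ± 0.10, 0.000631). Relb (-0.61 ± 0.12, limma adjusted p = 0.0117), Nfkbie (-0.55 ± 0.13, 0.0302) and Nfkbiz (-0.51 ± 0.10, 0.00964) were also called lower. Over all genes 2.13% were called lower and 1.04% higher, and the median log2 change was -0.61 for the members and -0.009 for all genes. Nfkb2 (-0.31, interval -0.63 to 0.02, limma adjusted p = 0.388) and Bcl3 (-0.19, interval -0.38 to 0.00, limma adjusted p = 0.355) were not called.

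These samples differ in both IL-12 and hours of culture, and this comparison shares its 8 h arrays with the one before. Calls were 4 of 9 with that macrophage covariate, which left out Relb, Nfkbie and Nfkbiz. They were 4 of 9 without untreated replicate 8, which left out the same 3, and 5 of 9 without untreated replicate 7. Over all genes 126, 267 and 300 were called in these settings, against 625 in the main fit. Within run 5 to 8, which holds both groups, the changes were -1.96 for Nfkbid, -1.13 for Rel, -0.82 for Tnfaip3, -0.67 for Nfkbia, -0.48 for Relb, -0.47 for Nfkbiz and -0.41 for Nfkbie. Taken alone, that run gave 5 of 9 calls, without Nfkbiz (limma adjusted p = 0.114) and Nfkbie (limma adjusted p = 0.0885), where 320 of all genes were called. Of the markers of other cells, Klrb1c (-0.88, limma adjusted p = 0.000279) and Ccr9 (-0.79, limma adjusted p = 0.0122) were called lower with the members, and their part was not tested.

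The 8 h levels can be read beside the single baseline array, as a description without a test and within run 5 to 8. Mean 8 h levels of Rel (10.90 against 10.79 at baseline) and Tnfaip3 (9.31 against 9.33) were near that array, and Nfkbid was below it (8.91 against 9.30). Relb (8.60 against 8.22), Nfkbia (11.45 against 11.03), Nfkbie (9.06 against 8.46), Nfkbiz (8.46 against 8.02) and Bcl3 (11.10 against 10.85) were above it. Nfkb2 was farthest above, at 10.73 against 9.79, while its mean in run 2 to 4 at 8 h was 9.99.

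Several members also differed between the array runs. Only the IL-12 groups lie in both runs, so the run term rests on their 9 arrays and pools 2 h and 8 h. By that term 5 of the 9 members were lower in run 2 to 4 than in run 5 to 8, where 12.5% of all genes were called lower. These were Nfkbiz (-0.41 ± 0.07, limma adjusted p = 0.000833), Rel (-0.36 ± 0.08, 0.00441), Nfkb2 (-0.35 ± 0.11, 0.0321), Nfkbia (-0.26 ± 0.07, 0.0167) and Bcl3 (-0.26 ± 0.06, 0.00969). Without IL-12 8 h replicate 2 the count was 3, where 3908 of all genes were called in either direction. Tnfaip3 (-0.18), Nfkbie (-0.08), Relb (-0.01) and Nfkbid (0.00) were not called, with limma adjusted p from 0.0863 to 0.977. Means of Nfkb2 in run 2 to 4 and run 5 to 8 were 10.71 and 10.74 at 2 h, and 9.99 and 10.73 at 8 h. Those of Relb were 9.22 and 9.02 at 2 h, and 8.34 and 8.60 at 8 h.

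Whether the fall from 2 h to 8 h differed between runs was tested on the 9 IL-12 arrays by an interaction term. Of the 9 members 1 was called, Nfkb2, whose fall was larger in run 2 to 4 by a log2 of -0.71 ± 0.11 (95% interval -0.95 to -0.47, limma adjusted p = 0.00628), where 1.96% of all genes were called in either direction. Differences of -0.49 for Nfkbie, -0.46 for Relb and 0.40 for Nfkbid had limma adjusted p of 0.0756, 0.0909 and 0.107. These 3 were called when the test was limited to genes above the median intensity, which made 4 calls. In that setting 620 genes were called in either direction, against 387 in the main fit. Without IL-12 8 h replicate 5 Nfkbid was called beside Nfkb2, and without IL-12 2 h replicate 4 Nfkbie was. Over all genes 533 and 186 were then called. The sign for Nfkbid was opposite to that of the other 8 members. Macrophage marker means at 8 h were 6.60 to 6.62 in run 2 to 4 and 7.03 to 7.04 in run 5 to 8, and their part in these differences was not tested.

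**Figure D4:**
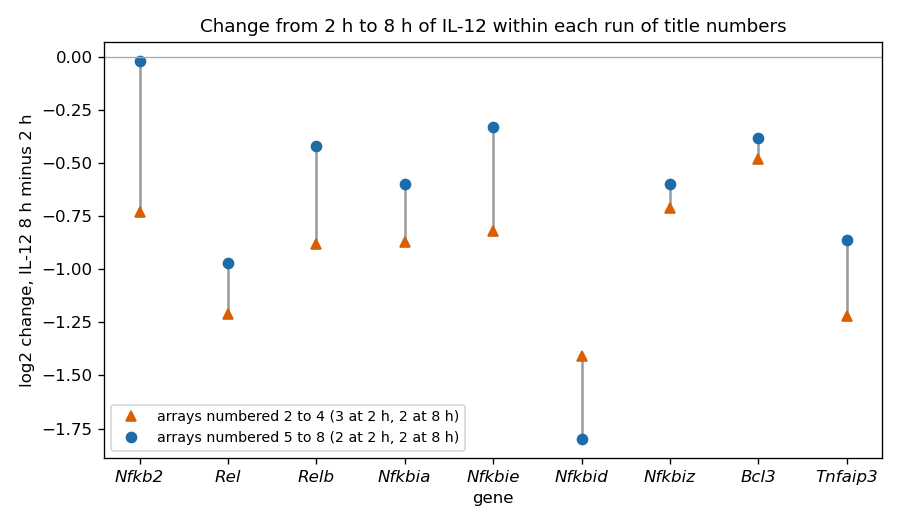
Log2 change from 2 h to 8 h of IL-12 (vertical axis) for each member within arrays numbered 2 to 4 (triangles, 3 and 2 arrays) and within those numbered 5 to 8 (circles, 2 and 2 arrays). Nfkb2 changed by -0.73 and -0.02, the widest gap, and Nfkbid is the gene whose fall was larger in run 5 to 8.

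The remaining pathway genes were grouped by role. Of 22 measured genes of the IkappaB kinase complex and its activators, 7 fell and 1 rose from 2 h to 8 h, with a median log2 change of -0.10, where 6.36% of all genes fell, 6.27% rose and the median was -0.009. Those that fell included Malt1 (-0.67, limma adjusted p = 2.12e-05) and Bcl10 (-0.49, 0.00042), which link the T cell receptor to the kinase, the ubiquitin ligases Birc3 (-0.53, 5.3e-05), Traf6 (-0.53, 0.000943) and Traf2 (-0.28, 0.0124), and the TAK1 adaptor Tab3 (-0.29, 0.00791). The 1 that rose, named after its value was seen, was Tradd (0.19, limma adjusted p = 0.0353), an adaptor of the TNF receptor. Of 19 other negative regulators 9 fell and 1 rose, with a median of -0.18, beside the same shares of all genes. Named ones were the A20 partners Tnip3 (-1.35 ± 0.17, limma adjusted p = 0.000132) and Tnip2 (-0.40, 0.00151), the RNA-decay factors Zc3h12a (-0.53, 3.87e-05) and Rc3h1 (-0.30, 0.00193), and Tank (-0.39, 0.000572). Nlrc3, an inhibitor of TRAF6 signalling, was the one that rose (0.52, limma adjusted p = 0.00542).

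Of 42 measured NF-kappaB target genes 27 fell and 2 rose, with a median log2 change of -0.45, where 6.36% of all genes fell and 6.27% rose. The cytokine gene Il2 fell most of those named (-2.10 ± 0.20, limma adjusted p = 1.32e-05), beside the chemokine genes Cxcl10 (-1.56, 2.97e-05) and Ccl4 (-1.0, 1.07e-06), the activation markers Cd83 (-1.18, 2.42e-06) and Cd69 (-1.14, 1.49e-06), and Ier5 (-0.60, 3.12e-05). Ccl5 (0.38, limma adjusted p = 0.023) and Tapbp (0.24, 0.0352), named after their values were seen, rose. Many of these targets answer to other receptor-driven factors too. Medians of the targets were -0.60 within run 2 to 4 and -0.24 within run 5 to 8, those of the kinase list -0.09 and -0.16, and those of the negative regulators -0.21 and -0.14. In run 5 to 8 alone, 9 targets, 2 kinase genes and 2 negative regulators were called lower, where 363 of all genes were called in either direction.

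**Figure D5:**
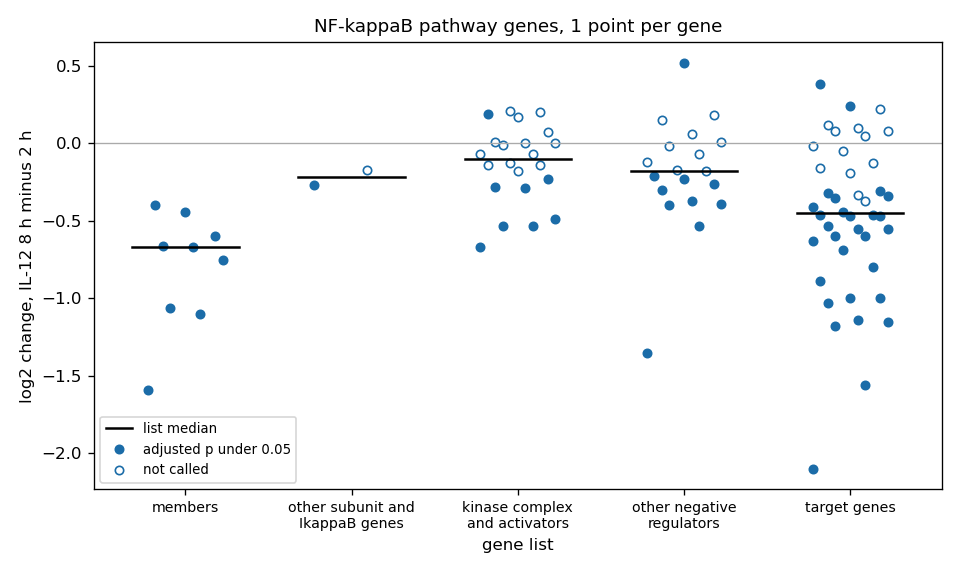
Log2 change from 2 h to 8 h of IL-12 (vertical axis) for each measured gene of 5 lists, 1 point per gene; filled points have a limma adjusted p under 0.05 and lines are list medians. The members' median is -0.67, the targets' -0.45, the negative regulators' -0.18 and the kinase list's -0.10, and Il2 is the lowest point at -2.10.

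The same lists were read in the other comparisons. After 2 h of IL-12 none of the 22 kinase genes, 19 negative regulators or 42 targets was called against untreated cells by limma, with medians of 0.02, 0.03 and 0.05 and with 4, 4 and 3 genes at an unadjusted p under 0.05. At 8 h against untreated 2 h, 10 targets were lower, among them Ccl4 (-1.04, limma adjusted p = 4.85e-05), Cd83 (-1.14, 0.000169), Ier5 (-0.77, 0.000169) and Cd69 (-0.94, 0.000417). With them 3 kinase genes (Bcl10 at -0.55, Malt1 at -0.38 and Traf6 at -0.47) and 3 negative regulators (Zc3h12a at -0.56, Rc3h1 at -0.29 and Tnip1 at -0.31) were lower, where 2.13% of all genes were lower and 1.04% higher. Target counts were 4 with the macrophage covariate and 6 without untreated replicate 7, where 126 and 300 of all genes were called. Both smaller lists then held 0 or 1 call. Without untreated replicate 8 the counts were 9 targets, 1 kinase gene and 1 negative regulator, where 267 of all genes were called.

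Between baseline and untreated 2 h, 12 targets, 9 kinase genes and 4 negative regulators were higher, where 6.28% of all genes were higher and 3.96% lower. Examples were Cd83 (1.84, limma adjusted p = 1.75e-05), Ccl4 (1.37, 2.62e-05), Malt1 (0.78, 0.001), Bcl10 (0.71, 0.00265) and Zc3h12a (0.98, 4.82e-05). Psmb9 (-0.58, limma adjusted p = 0.00455) and Tradd (-0.35, 0.0402), named after their values were seen, were lower. None of the 3 lists held a call with the macrophage covariate, and with the baseline array in run 2 to 4 they held 8, 1 and 1, where 50 and 204 of all genes were called. Without untreated replicate 8 the kinase list held 5 calls, and without replicate 7 the negative regulators held 2, where 1498 and 1464 of all genes were called. In run 5 to 8 alone 16 targets, 4 kinase genes and 4 negative regulators were called higher, where 1390 of all genes were called in either direction.

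For the 3 members whose means over the untreated, IL-12 2 h and IL-12 8 h groups spanned more than 1 log2 unit (the single baseline array left out of the span), the genes of most similar course were found by the root mean square difference of centred log2 values over the 12 arrays. Closest to Rel were Cd274 (0.127), which encodes PD-L1, Rnf149 (0.134) and Prrg4 (0.135). Closest to Tnfaip3 were Slamf1 (0.073), a lymphocyte co-receptor, Ddr1 (0.112) and Klf9 (0.127). Nfkbid had no neighbour as near, the first being Kdm6b (0.300), a histone demethylase gene, followed by Skil (0.312) and Sema7a (0.317). These differences were not scaled to the size of a gene's change. The span of Nfkbid was the largest, at 1.85 against 1.38 for Rel and 1.04 for Tnfaip3, so the distances are not comparable between members.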

How the data were processed

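The authors deposited 1 table of linear intensity for 24922 probe sets on 12 arrays, made with RMA in Affymetrix Power Tools per the submitters' processing notes, so values were already background-corrected, equalised between arrays and summarised per probe set; their versions, like the genome build, were not given in the sources used here. All value columns matched a sample title, and 0 were left over. Intensities were log2-transformed without further normalization or filter. Of the probe sets 21425 had 1 symbol, and the brightest stood for each gene, giving 19752 genes.

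All 12 arrays entered 1 limma 3.58.1 model (R 4.3.3) with 4 group means and a term for number run (lmFit, eBayes, 7 residual and 6.84 prior degrees of freedom). Tests were two-sided, and a gene was called where its p, adjusted by Benjamini-Hochberg over all genes, was under 0.05. Changes are log2 ± SE and intervals cover 95%. The interaction of time and run used the 9 IL-12 arrays. The median SE was 0.069 for IL-12 8 h against 2 h, 0.095 against untreated and 0.13 against baseline. Within-run values are differences of means. The linear model was tested on simulated data.

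Whether title numbers pair samples was checked with deviations at 2 h and 8 h of IL-12. Only numbers held at both times were used, which left out number 4. Deviations from group means correlated at 0.43, 0.35, 0.50 and 0.34 across genes for numbers 2, 3, 5 and 6. Deviations from means of group and run correlated at -0.25, -0.25, 0.03 and 0.03. The numbers thus share their run. With 2 such numbers in a run, their values are equal by construction, so pairing within a run could not be decided. Each fit with the number as a block is an alternative.

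All members were named. From each pathway list up to 6 called genes of smallest p were named for IL-12 8 h against 2 h and up to 4 elsewhere, and 3 genes of like course for a member spanning over 1 between means of the groups of 2 or more arrays. Members, lists and tests were chosen with earlier results of these data known. Alternatives covered the run term, baseline array, blocks, macrophage covariate, normalization, a pseudocount of 16, dim genes, probe sets, spread model and each array left out. Plots used Python 3.11.15 with matplotlib 3.10.9.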

Additional observations from a re-analysis of the deposited data

Results flagged for a closer look

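The fall of Nfkb2 from 2 h to 8 h of IL-12 differed between the array runs by a log2 of -0.71 (limma interaction test, adjusted p = 0.00628). It was -0.73 in run 2 to 4 and -0.02 in run 5 to 8. What the runs are was not given in the labels, and the cause was not tested. Of 18 member groups of 4 or more arrays, 0 held an array that stood apart from the others at the 95% level. That check pooled both runs and looked for a lone array. It could not flag arrays of a run that stood apart together, as those of Nfkb2 did at 8 h.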

How the results depend on the processing

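Of 621 member values under an alternative, 578 kept their side of the threshold and direction where called, 43 lost a call, 0 gained one and 0 called values changed sign. Signs were kept in 198 of 198 values for IL-12 8 h against 2 h, 153 of 153 for 8 h against untreated, 108 of 108 for untreated against baseline and 144 of 162 for 2 h against untreated. Counts of called members moved by more than 1.5 times in the settings listed next. For 8 h against untreated, the run term and the interaction they also did so in some fits with 1 array left out, whose ranges follow. IL-12 8 h against 2 h went from 9 to 5 with only arrays numbered 5 to 8, and 8 h against untreated from 7 to 4 with the macrophage covariate. Untreated against baseline went from 9 to 5 with no run term, to 5 with the baseline array in run 2 to 4 and to 1 with the macrophage covariate. The interaction went from 1 to 4 among genes above the median intensity, where 620 genes were called against 387 in the main fit. Leaving out 1 array gave 8 to 9 members for IL-12 8 h against 2 h, 4 to 7 for 8 h against untreated, 0 for 2 h against untreated, 8 to 9 for untreated against baseline, 3 to 6 for the run term and 1 to 2 for the interaction. With the title number as a fixed replicate block, 8 of 9 members and 1246 genes in all were called for IL-12 8 h against 2 h, against 2496 without it, and Nfkb2 was the member lost. As a random replicate block (within-block correlation -0.14) it gave 9, 7, 0 and 9 members in the 4 comparisons, and changed no call of a member. Counts over all genes for IL-12 8 h against 2 h were 871 with no run term, 363 with only arrays numbered 5 to 8, 1392 with the macrophage covariate and 1525 to 2339 with 1 array left out. For 8 h against untreated they were 625, then 243, 320 and 126, and 267 and 300 without an untreated array. For untreated against baseline they were 2022, then 115 with no run term, 204 with the baseline array in run 2 to 4 and 50 with the covariate. The causes were not tested. With 1 baseline and 2 untreated arrays, comparisons with these groups rest on the spread of the IL-12 groups, and signal over background was not analysed here.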
